A study of Rattus norvegicus with 15 samples.

Results

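The genes described here are those of the tumour necrosis factor (TNF) superfamily, its receptors and the TRAF adaptors, taken by name from a table of rat lung RNA sequencing. Chosen were the symbols that begin with Tnfsf, Tnfrsf or Traf and a digit, together with Tnf, Lta, Ltb, Ltbr, Fas, Faslg, Cd40, Cd40lg, Cd27, Cd70, Tradd and Ripk1. Of 50 such genes among 22250, 41 reached at least 1 FPKM (fragments per kilobase of transcript, scaled to the mapped fragments of each library) in at least 5 of the 15 libraries and were tested, and 9 did not. The pattern for Traf also takes in Traf3ip1, Traf3ip2 and Traf3ip3, which bind TRAF3 and are not TRAF proteins themselves. The libraries came from the lungs of wild-type rats, 5 in each of 3 groups. Control rats were normal. COPD rats had received lipopolysaccharide (LPS, a component of bacterial outer membranes) and smoke by the tracheal route to model chronic obstructive pulmonary disease. WDD rats had the same tracheal exposure and were given Wendan Decoction, a Chinese herbal preparation, into the stomach. The labels give no strain, age, sex, dose or time, and no group received the decoction without the exposure. Whether every library is a separate rat is not stated either, so p-values here measure the spread between these samples.

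Ligands of the TNF superfamily are trimeric proteins, mostly anchored in the membrane of leukocytes, that cluster receptors on a neighbouring cell. Receptors with a death domain recruit TRADD, FADD and RIPK1 and can start apoptosis or necroptosis, whereas the others bind TRAF adaptors directly. Both routes can activate NF-kappaB, and in lung the family is known for acute inflammation, for lymphocyte survival and for the upkeep of lymphoid tissue.

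The groups also differed in the makeup of whole libraries, and this touches every value below. Mitochondrially encoded genes held 5.19% to 9.62% of the FPKM sum in control, 33.7% to 65.0% in COPD and 19.1% to 26.5% in WDD libraries. Over the 13172 genes tested, the median log2 fold change was -0.81 for COPD against control, 0.54 for WDD against COPD and -0.23 for WDD against control. After median-of-ratios scaling, which sets a typical gene to no change, these medians were -0.05, 0.03 and 0.00, so values under that scaling are given below for the members whose calls it changed. The median level of 18 long housekeeping transcripts on the log2(FPKM + 1) scale was 3.99 in control, 2.33 in COPD and 2.89 in WDD libraries (group means), against 5.46, 5.95 and 6.37 for 19 short ones. The part of transcript length in the results below was not tested. Depth relative to control 2, read from the steps between low FPKM values, ranged from 0.879 in COPD 4 up to 1.11 in COPD 2. Marker genes of several lung cell types were called lower in COPD lungs, as were 66.4% of all genes. The shares for macrophages and monocytes and for fibroblasts lay below that. For alveolar type 1 cells 6 of 6 were called lower (summed level 525 to 1514 FPKM against 2742 to 3723 in controls and 2489 to 3447 in WDD lungs), and for type 2 cells 5 of 6 (2938 to 14053 against 16109 to 24750 and 19219 to 22575 FPKM). For endothelial cells 4 of 4 tested were lower (54.2 to 171 against 348 to 457 and 263 to 317 FPKM). Cldn5, listed at 0 in every COPD and WDD library, did not pass the filter, and nothing is read from it. For macrophages and monocytes 4 of 7 tested were lower (75.0 to 218 against 203 to 284 and 143 to 214 FPKM). For fibroblasts 2 of 5 tested were lower and 1 higher, with sums that overlapped (116 to 330 against 196 to 269 and 209 to 289 FPKM). Their part in the falls of members was not tested.

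Promoter sequences are shown for the 3 genes with the largest rises in COPD lungs and for the gene with the largest fall, so that shared letters upstream of co-moving genes can be read directly. Each line holds the 250 bases before the annotated start, 5′ to 3′ on the gene's own strand, from RefSeq on build GRCr8, at chr20:3634055-3634304, minus strand, for Ltb, chr9:2160087-2160336, minus strand, for Tnfsf14, chr5:166664244-166664493, plus strand, for Tnfrsf9 and chr2:112136689-112136938, plus strand, for Tnfsf10. Capitals mark a match to the NF-kappaB consensus.
Ltb: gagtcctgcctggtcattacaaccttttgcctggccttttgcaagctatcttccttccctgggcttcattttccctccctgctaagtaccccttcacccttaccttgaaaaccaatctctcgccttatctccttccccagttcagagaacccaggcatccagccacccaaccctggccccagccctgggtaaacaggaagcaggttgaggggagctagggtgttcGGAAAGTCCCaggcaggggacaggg
Tnfsf14: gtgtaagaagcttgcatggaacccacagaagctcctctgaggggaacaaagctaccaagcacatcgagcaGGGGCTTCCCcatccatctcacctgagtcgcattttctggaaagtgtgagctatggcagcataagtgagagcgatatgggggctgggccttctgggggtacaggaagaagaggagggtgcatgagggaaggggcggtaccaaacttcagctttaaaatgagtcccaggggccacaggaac
Tnfrsf9: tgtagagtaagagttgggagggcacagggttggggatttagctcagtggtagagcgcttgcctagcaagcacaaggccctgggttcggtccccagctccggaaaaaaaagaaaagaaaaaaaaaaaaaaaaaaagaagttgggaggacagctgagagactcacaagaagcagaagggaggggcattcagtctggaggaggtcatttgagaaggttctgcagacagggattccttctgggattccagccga
Tnfsf10: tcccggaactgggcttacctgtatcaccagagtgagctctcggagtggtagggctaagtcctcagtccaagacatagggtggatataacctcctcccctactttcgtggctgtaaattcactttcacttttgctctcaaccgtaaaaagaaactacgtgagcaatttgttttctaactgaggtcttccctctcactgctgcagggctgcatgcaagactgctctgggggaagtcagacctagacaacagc
Ltb held GGAAAGTCCC, 25 to 16 bases before the start, and Tnfsf14 held GGGGCTTCCC, 180 to 171 bases before it, whereas the windows of Tnfrsf9 and Tnfsf10 held no match. The consensus was searched on both strands, and 6.33% of all 33469 promoter windows hold at least 1 match. Of 39 windows that could be matched to the 50 genes, 8 held one, those of Fas, Lta, Ltb, Tnfrsf8, Tnfsf14, Traf3, Traf3ip2 and Traf7. Some of these genes were higher and some lower in COPD lungs. The AP-1 site TGANTCA, which does not overlap the former in these windows, was found in 6.34% of all windows and in 5 of the 39, those of Fas, Tnfrsf1b, Tnfrsf8, Traf1 and Traf3ip2. Such matches describe letters only.

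Seen as a whole, few members rose and many fell in COPD lungs, as most genes did. Against control, 6 of 41 members were called higher and 22 lower at an adjusted p under 0.05 (limma, Benjamini-Hochberg over all genes tested), where 8.23% of all genes were called higher, 66.4% lower and 74.7% either way. The median member had a log2 fold change of -0.57, beside -0.81 for all genes. After median-of-ratios scaling 16 of the 41 members were higher and 10 lower, where 3947 of all 13172 genes were higher and 4296 lower. The 6 called higher and 10 of the 22 called lower kept their call under that scaling, and Traf7 turned from lower to higher. In 4 members all COPD libraries lay above all controls (3.99% of all genes) and in 15 all lay below (52.3% of all genes).

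Between WDD and COPD lungs, 17 members were called higher and 10 lower, where 57.1% of all genes were higher, 6.63% lower and 63.8% either way. The median member had 0.34, beside 0.54 for all genes. After median-of-ratios scaling 8 members were higher and 15 lower, where 3075 of all 13172 genes were higher and 2819 lower. Of the calls on deposited values, 8 of the 17 and all 10 kept theirs. In 9 members every WDD library lay above every COPD library (40.6% of all genes) and in 6 below (4.43% of all genes). Between WDD and control lungs 1 member was higher and 8 lower, where 6.35% of all genes were higher, 31% lower and 37.3% either way. The median member had -0.12, beside -0.23 for all genes. All WDD libraries lay below all controls in 11 members (31.4% of all genes) and above them in 0 (6.76% of all genes). COPD libraries enter the first and second of these comparisons, and control libraries the first and the last, so they are not independent of each other.

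**Figure D1:**
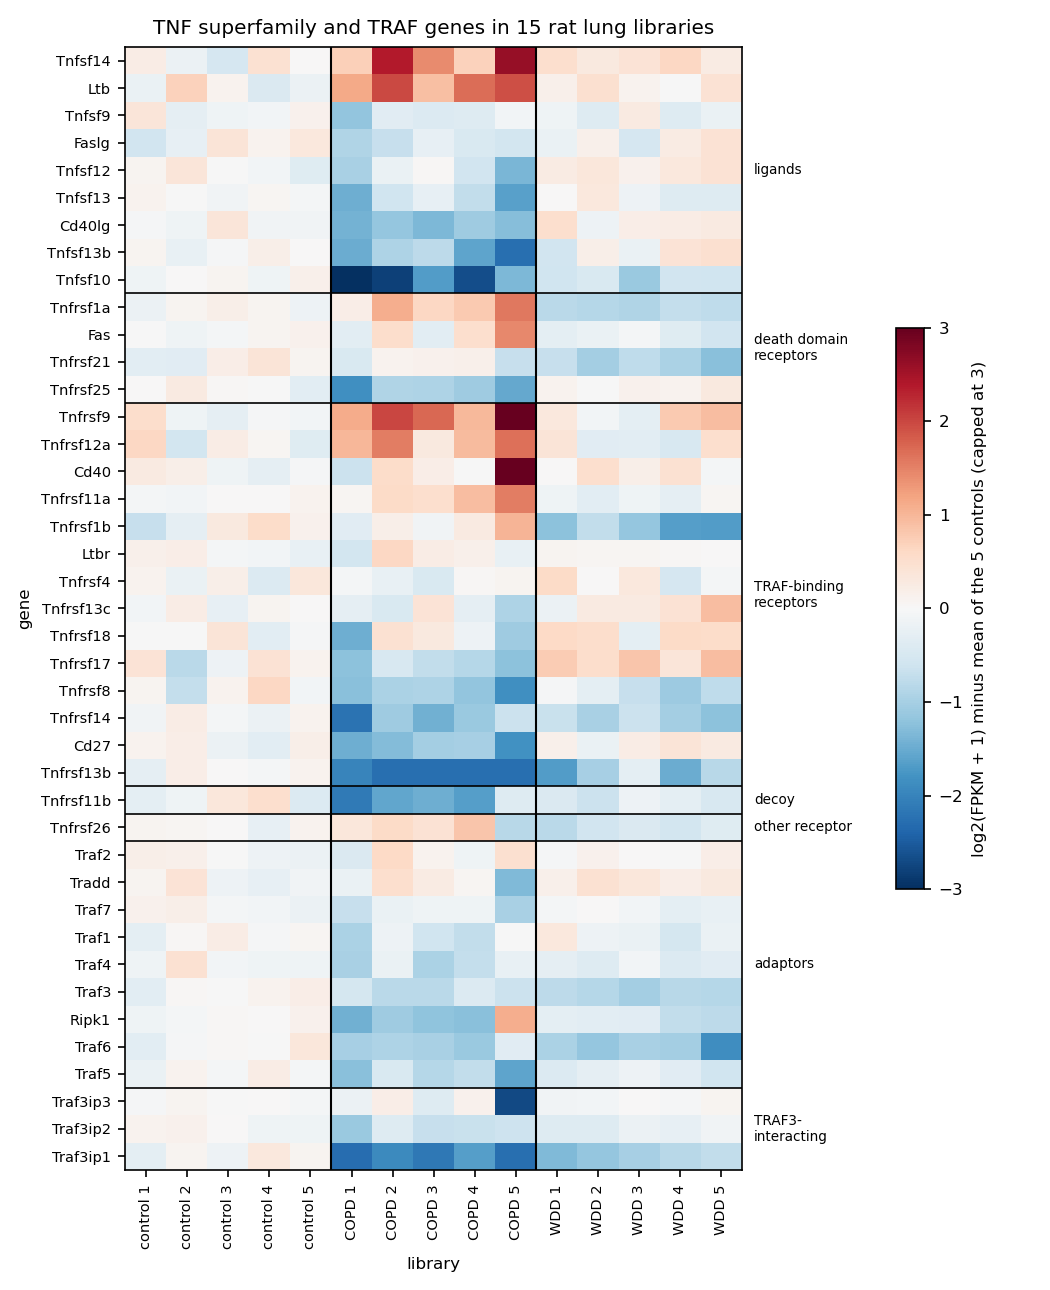
Levels of the 41 genes tested (rows, grouped by role) in 15 libraries (columns), as log2(FPKM + 1) minus the mean of the 5 controls, with colours capped at 3. Tnfsf14, Ltb, Tnfrsf1a and Tnfrsf9 are red in all COPD libraries, and COPD 5 differs from the other COPD libraries in Cd40, Ripk1 and Traf3ip3.

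**Figure D2:**
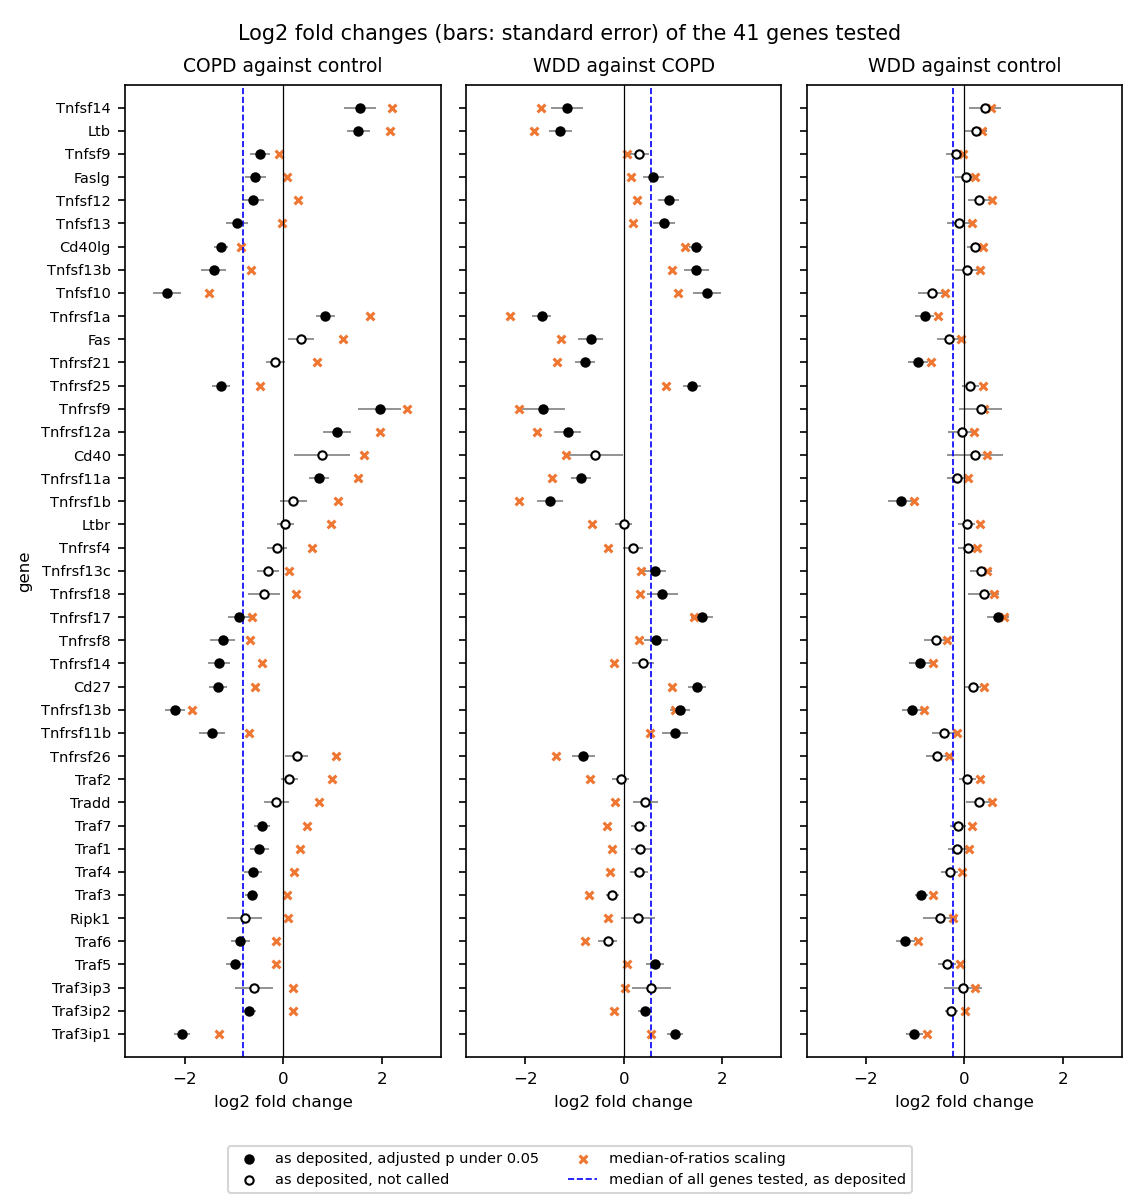
Log2 fold change (horizontal axis) of each gene in the 3 comparisons, with standard errors as bars, filled dots for called genes and crosses for median-of-ratios scaling. The dashed line is the median of all genes tested, at -0.81, 0.54 and -0.23 from left to right.

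Among the ligands, 2 of 9 tested rose and 7 fell in COPD lungs, where 8.23% of all genes were called higher and 66.4% lower. The 2 that rose, Ltb and Tnfsf14, both encode ligands of the lymphotoxin beta receptor: Ltb is the membrane anchor of lymphotoxin, and Tnfsf14 is LIGHT, which also binds the herpesvirus entry mediator encoded by Tnfrsf14. Ltb stood at 0.858, 2.46, 1.32, 0.598 and 0.897 FPKM in controls 1 to 5, at 3.67, 7.44, 3.04, 5.89 and 7.16 FPKM in COPD 1 to 5, and at 1.39, 2.002, 1.32, 1.13 and 1.88 FPKM in WDD 1 to 5. Every COPD library lay above all others, while control and WDD libraries overlapped. The log2 fold change was 1.53 ± 0.23 (± SE; adjusted p = 1.99e-05, limma) for COPD against control and -1.29 ± 0.23 (adjusted p = 0.000208, limma) for WDD against COPD, in values of log2(FPKM + 1), which understate the change of low genes.

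Tnfsf14 stood at 1.63, 0.984, 0.571, 2.08 and 1.25 FPKM in controls, at 2.69, 10.7, 5.001, 2.61 and 12.7 FPKM in COPD lungs, and at 2.19, 1.75, 1.97, 2.48 and 1.66 FPKM in WDD lungs. The lowest COPD libraries lay only just above the highest WDD library, and COPD 2 and COPD 5 were far above the rest. It rose by 1.56 ± 0.32 in COPD against control lungs (adjusted p = 0.000377, limma) and fell by 1.15 ± 0.32 in WDD against COPD lungs (adjusted p = 0.00591, limma). Its value between COPD and control lungs was 1.30 without COPD 5. Ltb and Tnfsf14 lay at percentiles 97.8 and 97.9 of all genes by fold change. Their shared receptor, Ltbr, was about as high in all groups, at 67.9 ± 8.39, 72.5 ± 22.5 and 69.6 ± 1.5 FPKM in control, COPD and WDD lungs (mean ± SD, n = 5 each), with a log2 fold change of 0.046 ± 0.18 in COPD lungs. After median-of-ratios scaling Ltbr had 0.96 for COPD against control and -0.65 for WDD against COPD, both called.

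The largest fall was that of Tnfsf10, which encodes TRAIL, a ligand able to start apoptosis in susceptible cells. It stood at 37.3, 41.3, 43.6, 37.0 and 45.4 FPKM in controls, at 3.34, 5.03, 12.1, 5.57 and 15.3 FPKM in COPD lungs, and at 26.5, 29.6, 18.4, 27.1 and 26.8 FPKM in WDD lungs. The 3 groups did not overlap, with WDD lungs between the others. It fell by 2.35 ± 0.28 in COPD lungs (adjusted p = 1.43e-06, limma) and rose by 1.69 ± 0.28 in WDD against COPD lungs (adjusted p = 0.000100, limma). Between WDD and control lungs it differed by -0.66 ± 0.28, which did not pass (adjusted p = 0.0747, limma) although every WDD library was below every control. With only those groups fitted that difference was called (adjusted p = 0.000698, limma).

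Tnfsf13b and Tnfsf13 encode BAFF and APRIL, which keep B cells and plasma cells alive. Tnfsf13b stood at 9.94, 7.88, 9.03, 10.6 and 9.36 FPKM in controls, at 2.69, 4.42, 5.01, 2.45 and 1.14 FPKM in COPD lungs, and at 5.99, 10.6, 8.04, 12.8 and 13.5 FPKM in WDD lungs. All COPD libraries lay below both other groups, which overlapped. It fell by 1.41 ± 0.25 in COPD lungs (adjusted p = 0.000101, limma) and rose by 1.47 ± 0.25 in WDD against COPD lungs (adjusted p = 0.000136, limma). Tnfsf13 had -0.93 ± 0.23 and 0.82 ± 0.23 in the same comparisons, both called, but -0.030 and 0.18 after median-of-ratios scaling, neither called.

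Cd40lg, the ligand by which helper T cells activate B cells and macrophages, stood at 2.03, 1.83, 2.99, 1.89 and 1.90 FPKM in controls, at 0.156, 0.386, 0.212, 0.485 and 0.281 FPKM in COPD lungs, and at 3.40, 1.78, 2.56, 2.62 and 2.74 FPKM in WDD lungs. Again the COPD libraries stood apart at the low end. It fell by 1.26 ± 0.15 in COPD lungs (adjusted p = 1.08e-06, limma) and rose by 1.46 ± 0.15 in WDD against COPD lungs (adjusted p = 9.62e-07, limma). Beside this, 11 of 12 T cell marker genes were called lower in COPD lungs (66.4% of all genes). They summed there to 31.98 to 76.1 FPKM against 194 to 268 FPKM in control and 193 to 265 FPKM in WDD lungs. None of them was at 0 throughout a group. Their part in the results on Cd40lg, Cd27 and Tnfrsf25 was not tested. In such tissue RNA, fewer cells of a type and less RNA per cell cannot be told apart.

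Tnfsf12, which encodes TWEAK, the ligand of the receptor Fn14, fell by 0.62 ± 0.22 in COPD lungs and rose by 0.91 ± 0.22 in WDD against COPD lungs. Faslg, the Fas ligand of cytotoxic lymphocytes, had -0.57 ± 0.21 and 0.60 ± 0.21, both called. Of 4 natural killer cell marker genes tested, 3 were called lower in COPD lungs (66.4% of all genes). In WDD against COPD lungs 1 was higher (57.1% of all genes). The 6 measured summed to 36.9 to 62.3 FPKM in control, 16.3 to 35.2 FPKM in COPD and 26.5 to 57.6 FPKM in WDD lungs. Their part in the result on Faslg was not tested. Tnfsf9, the ligand of the co-stimulatory receptor encoded by Tnfrsf9, had -0.48 ± 0.20 (called) and 0.31 ± 0.20 (not called). None of the calls on Tnfsf12, Faslg and Tnfsf9 held after median-of-ratios scaling, where they had 0.29, 0.081 and -0.077 between COPD and control lungs. Tnfsf12 was called higher in WDD than in control lungs under that scaling (0.57; adjusted p = 0.0195, limma) and not on deposited values (0.30).

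Transcripts of Tnf itself were close to the limit of these libraries. Tnf was listed at 0.0464 and 0.0467 FPKM in controls 1 and 2 and at 0 in the others, at 0.0478, 0.127, 0.0928, 0.0531 and 0.301 FPKM in COPD 1 to 5, and, among WDD libraries, at 0.0883 FPKM in WDD 3, at 0.0440 FPKM in WDD 4 and at 0 in the rest. It was listed above 0 in all 5 COPD libraries, at levels too low to be tested. Tnfsf11, the ligand RANKL, was listed at 0 in every library. The other untested ligands, Lta, Tnfsf4, Tnfsf8, Tnfsf15, Tnfsf18 and Cd70, reached at most 1.39 FPKM (Tnfsf8, control 3), and the untested receptor Tnfrsf19 stood at 0.479 to 1.17 FPKM in controls, 0 to 0.118 FPKM in COPD lungs and 0.355 to 0.825 FPKM in WDD lungs. These 9 genes had to be low to fall under the filter, and nothing is read from their number.

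Of the 4 receptors with a death domain, 1 rose and 1 fell in COPD lungs (8.23% and 66.4% of all genes). In WDD against COPD lungs 3 were lower and 1 higher (6.63% and 57.1% of all genes). Tnfrsf1a encodes TNFR1, the main receptor for soluble TNF, which is made by most cell types. It stood at 46.9, 56.5, 60.4, 56.3 and 48.1 FPKM in controls, at 61.2, 115, 81.9, 93.1 and 163 FPKM in COPD lungs, and at 30.3, 28.9, 28.3, 32.2 and 31.0 FPKM in WDD lungs. No libraries of different groups overlapped: COPD lungs were highest and WDD lungs lowest, below normal lung. It rose by 0.86 ± 0.19 in COPD lungs (adjusted p = 0.000815, limma), fell by 1.66 ± 0.19 in WDD against COPD lungs (adjusted p = 4.15e-06, limma) and was 0.81 ± 0.19 log2 units lower in WDD than in control lungs (log2 fold change -0.81, adjusted p = 0.00394, limma).

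Among all genes, Tnfrsf1a lay at percentile 95.2 for COPD against control and at percentile 1.9 for WDD against COPD. Its difference between WDD and control lungs was -0.53 after median-of-ratios scaling, still called (adjusted p = 0.0490, limma). Fas, the receptor that starts apoptosis when bound by Fas ligand, stood at 8.13, 7.43, 7.93, 8.80 and 9.07 FPKM in controls, at 6.38, 12.4, 6.38, 12.1 and 24.2 FPKM in COPD lungs and at 6.501, 7.004, 7.88, 6.17 and 5.20 FPKM in WDD lungs. COPD libraries fell on both sides of the controls. The value for COPD against control, 0.37 ± 0.26, was not called on deposited values and was 1.21 and called after median-of-ratios scaling. The lower level in WDD against COPD lungs (-0.67 ± 0.26; adjusted p = 0.0324, limma) did not hold in every fit. It was -0.40 and not called without COPD 5 (adjusted p = 0.0653, limma), was not called without COPD 2, COPD 4, WDD 1, WDD 4 or WDD 5 in turn or with only those groups fitted (adjusted p = 0.0718, limma), and was called at -0.54 without COPD 1 and COPD 5 together (adjusted p = 0.0173, limma).

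Tnfrsf21, which encodes death receptor 6, stood at 7.90, 7.71, 11.6, 13.3 and 10.6 FPKM in controls, at 7.03, 10.9, 11.0, 11.2 and 5.77 FPKM in COPD lungs, and at 5.85, 4.40, 5.53, 4.66 and 3.62 FPKM in WDD lungs. WDD libraries lay below all controls. It was lower in WDD lungs than in COPD lungs by -0.78 ± 0.20 and than in controls by -0.94 ± 0.20 (adjusted p = 0.00289 and 0.00165, limma), and these calls held under median-of-ratios scaling. Against control, its COPD value of -0.16 ± 0.20 turned to a called 0.68 under that scaling. Tnfrsf25, death receptor 3 of T cells, stood at 10.2, 12.5, 10.4, 10.1 and 7.90 FPKM in controls, at 2.08, 4.95, 4.86, 4.30 and 2.81 FPKM in COPD lungs, and at 11.0, 10.1, 11.1, 10.9 and 12.6 FPKM in WDD lungs. COPD libraries lay below both other groups, as with Cd40lg, with log2 fold changes of -1.26 ± 0.18 from control to COPD and 1.38 ± 0.18 from COPD to WDD (adjusted p = 9.33e-06 and 1.06e-05, limma).

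Of 14 receptors that bind TRAF adaptors directly, 3 rose and 5 fell in COPD lungs, where 8.23% of all genes were called higher and 66.4% lower. Tnfrsf9, the co-stimulatory receptor CD137 of activated lymphocytes, had the largest rise of any member. It stood at 1.24, 0.414, 0.288, 0.507 and 0.478 FPKM in controls, at 2.36, 5.24, 4.12, 2.04 and 24.1 FPKM in COPD lungs, and at 0.922, 0.477, 0.261, 1.69 and 1.95 FPKM in WDD lungs. All COPD libraries lay above all others, COPD 4 only slightly above WDD 5. The rise was 1.96 ± 0.44 (adjusted p = 0.000704, limma), or 1.45 without COPD 5, and WDD lungs were lower than COPD lungs by -1.63 ± 0.44 (adjusted p = 0.00417, limma).

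Tnfrsf12a encodes Fn14, the receptor of TWEAK, which is induced in injured tissue. It stood at 19.8, 8.26, 14.9, 13.1 and 9.52 FPKM in controls, at 26.1, 38.4, 15.7, 25.2 and 41.6 FPKM in COPD lungs, and at 16.6, 9.71, 9.90, 8.64 and 18.3 FPKM in WDD lungs. COPD 3 lay within the range of the other groups and the remaining COPD libraries above it. It rose by 1.09 ± 0.28 in COPD lungs and fell by 1.14 ± 0.28 in WDD against COPD lungs (adjusted p = 0.00221 and 0.00230, limma). Tnfrsf11a, the receptor RANK, stood at 4.54, 4.43, 4.8, 4.85 and 5.23 FPKM in controls, at 5.05, 7.56, 7.17, 9.89 and 15.7 FPKM in COPD lungs and at 4.25, 3.63, 4.29, 3.82 and 5.03 FPKM in WDD lungs, with COPD 5 the highest. The log2 fold changes were 0.72 ± 0.20 and -0.87 ± 0.20 (adjusted p = 0.00442 and 0.00157, limma).

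Beside these rises, 11 of 12 neutrophil marker genes were called higher in COPD lungs (8.23% of all genes). In WDD against COPD lungs 11 were called lower (6.63% of all genes). They summed to 67.4 to 118 FPKM in control, 12682 to 43333 FPKM in COPD and 108 to 484 FPKM in WDD lungs, and their part in the results on Ltb, Tnfsf14, Tnfrsf1a, Tnfrsf9, Tnfrsf11a and Tnfrsf12a was not tested.

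Tnfrsf1b encodes TNFR2, the receptor for membrane-bound TNF on leukocytes and endothelium. It stood at 14.6, 19.6, 29.5, 35.3 and 26.4 FPKM in controls, at 18.7, 27.4, 22.4, 29.3 and 50.02 FPKM in COPD lungs, and at 9.73, 14.05, 10.2, 6.93 and 6.84 FPKM in WDD lungs. WDD libraries were lower than all others, while control and COPD libraries overlapped. The log2 fold change was -1.50 ± 0.27 for WDD against COPD and -1.29 ± 0.27 for WDD against control (adjusted p = 0.000196 and 0.00149, limma), and both held after median-of-ratios scaling (-2.12 and -1.02). For COPD against control it was 0.21 ± 0.27, not called, or 1.10 and called after that scaling. Thus Tnfrsf1a and Tnfrsf1b, the receptors of TNF, were both below normal lung in the decoction group.

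**Figure D3:**
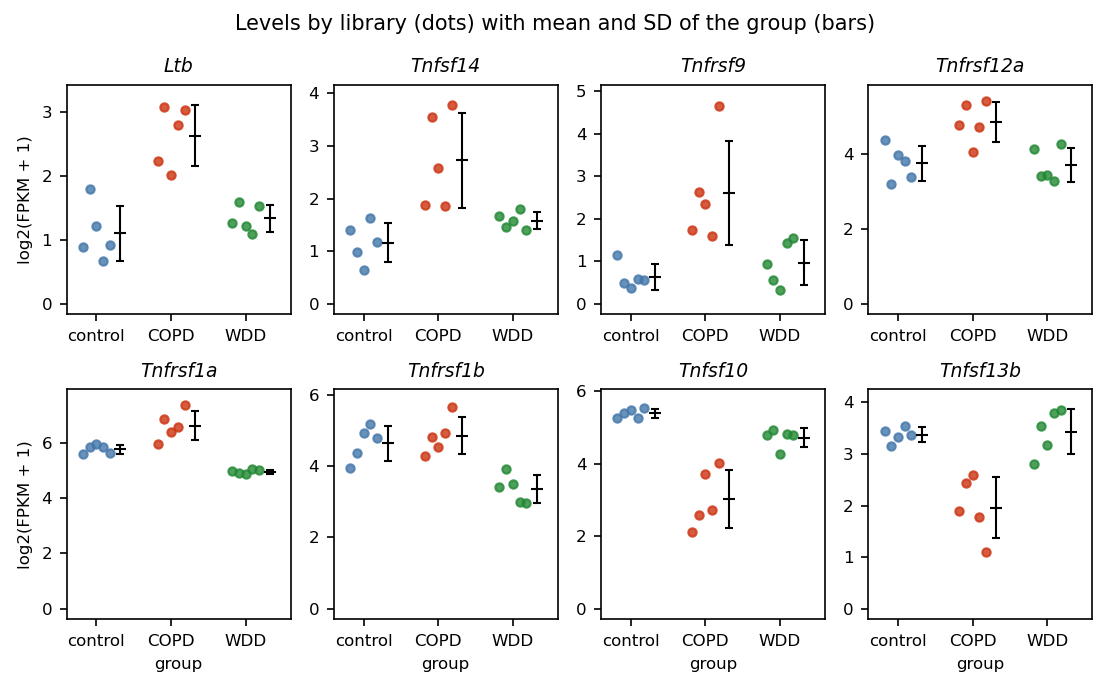
Levels of 8 members by library on the log2(FPKM + 1) scale (vertical axes, which differ between panels), with each group's mean and SD as black bars. The upper row shows genes with high COPD libraries; in the lower row, Tnfrsf1a and Tnfrsf1b have their lowest libraries in WDD lungs, and Tnfsf10 and Tnfsf13b in COPD lungs.

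Cd40, the receptor for the CD40 ligand on B cells and myeloid cells, did not pass in any comparison on deposited values. It stood at 11.1, 10.4, 8.24, 7.44 and 8.97 FPKM in controls, at 5.50, 13.9, 10.6, 9.10 and 145 FPKM in COPD lungs, and at 9.16, 13.5, 10.4, 12.9 and 8.71 FPKM in WDD lungs. COPD 5 was far above every other library and the other 4 COPD libraries spread around the controls. The log2 fold change of 0.79 ± 0.57 was not called (adjusted p = 0.218, limma) and was 0.025 without COPD 5. After median-of-ratios scaling of all libraries it was 1.64 and called.

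Receptors of lymphocytes were among those that fell. Cd27, a co-stimulatory receptor of T and memory B cells, stood at 9.24, 10.04, 7.52, 6.75 and 9.81 FPKM in controls, at 2.46, 2.89, 3.73, 3.81 and 1.70 FPKM in COPD lungs and at 9.67, 7.34, 10.1, 11.5 and 10.6 FPKM in WDD lungs. Its COPD libraries did not overlap with the others (-1.32 ± 0.18 and 1.49 ± 0.18; adjusted p = 4.38e-06 and 4.58e-06, limma). Tnfrsf13b, which encodes TACI, a receptor for BAFF and APRIL on B cells, stood at 2.92, 4.52, 3.84, 3.57 and 4.15 FPKM in controls, at 0.215 FPKM in COPD 1 and at 0 in the other 4 COPD libraries, and at 0.501, 1.38, 2.88, 0.693 and 1.70 FPKM in WDD lungs. No groups overlapped, with WDD lungs between the others, and its log2 fold changes of -2.20 ± 0.21, 1.14 ± 0.21 and -1.06 ± 0.21 for COPD against control, WDD against COPD and WDD against control were all called (adjusted p = 1.31e-07, 0.000226 and 0.000988, limma).

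Tnfrsf17 encodes BCMA, a receptor for the same ligands on plasma cells. It stood at 2.11, 0.326, 1.11, 2.12 and 1.52 FPKM in controls, at 0, 0.663, 0.405, 0.278 and 0 FPKM in COPD lungs, and at 2.95, 2.38, 3.16, 1.999 and 3.46 FPKM in WDD lungs. It was the 1 member called higher in WDD than in control lungs (0.69 ± 0.22; adjusted p = 0.0233, limma). Control 4 and control 1 lay above the lowest WDD library, and the call was lost without control 2 (0.49), control 3 (0.65), WDD 3 (0.65) or WDD 5 (0.63), and at a pseudocount of 0.1 (adjusted p = 0.157, limma). WDD against COPD it rose by 1.59 ± 0.22, and COPD against control it fell by 0.90 ± 0.22 (adjusted p = 2.28e-05 and 0.00166, limma).

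Tnfrsf13c, the BAFF receptor of B cells, had -0.30 ± 0.22 in COPD lungs, not called, and 0.64 ± 0.22 in WDD against COPD lungs, called on deposited values only. Among 10 B cell marker genes 4 were called lower and 1 higher in COPD lungs (66.4% and 8.23% of all genes). These markers summed there to 20.8 to 68.9 FPKM against 53.0 to 66.4 FPKM in controls. In WDD against COPD lungs 5 were higher (57.1% of all genes), with sums of 85.1 to 97.7 FPKM in WDD lungs. Their part in the results on Tnfrsf13b, Tnfrsf17 and Tnfrsf13c was not tested.

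Tnfrsf14, the herpesvirus entry mediator bound by LIGHT, stood at 22.2, 28.2, 22.9, 21.2 and 25.5 FPKM in controls, at 4.40, 10.9, 8.15, 10.4 and 14.9 FPKM in COPD lungs and at 14.6, 11.7, 14.9, 11.3 and 9.59 FPKM in WDD lungs. All libraries of both exposed groups lay below the controls. Its log2 fold change against control was -1.30 ± 0.22 for COPD and -0.91 ± 0.22 for WDD lungs (adjusted p = 6.63e-05 and 0.00464, limma). The former was -0.43 and not called after median-of-ratios scaling, whereas the latter, -0.64, was still called. So LIGHT was higher and 1 of its receptors lower in COPD lungs on deposited values, while Ltbr did not pass.

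The remaining receptors of this kind were at a few FPKM. Tnfrsf8, CD30 of activated lymphocytes, fell by 1.23 ± 0.25 in COPD lungs and rose by 0.66 ± 0.25 in WDD against COPD lungs, the latter not called after median-of-ratios scaling (0.31; adjusted p = 0.304, limma). Tnfrsf18 and Tnfrsf4, the co-stimulatory receptors GITR and OX40, did not pass between COPD and control lungs (-0.39 ± 0.32 and -0.13 ± 0.20), though Tnfrsf4 had 0.58 and was called after median-of-ratios scaling. Tnfrsf18 was higher in WDD than in COPD lungs by 0.78 ± 0.32, a call not kept under that scaling.

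Tnfrsf11b encodes osteoprotegerin, a secreted decoy that binds RANKL and TRAIL. It stood at 7.45, 8.47, 12.1, 13.6 and 6.83 FPKM in controls, at 1.36, 2.50, 2.73, 2.29 and 6.90 FPKM in COPD lungs, and at 6.68, 5.63, 8.29, 7.43 and 6.41 FPKM in WDD lungs. Only COPD 5 reached the range of the other groups. It fell by 1.44 ± 0.26 in COPD lungs (adjusted p = 0.000105, limma) and rose by 1.04 ± 0.26 in WDD against COPD lungs, the latter not called after median-of-ratios scaling (0.54; adjusted p = 0.143, limma). The decoy and TRAIL, 1 of its ligands, were thus both lower in COPD lungs. Tnfrsf26, a rodent receptor of the family, had 0.27 ± 0.24 in COPD lungs, not called (1.07 and called after median-of-ratios scaling), and -0.82 ± 0.24 in WDD against COPD lungs (adjusted p = 0.00633, limma).

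Of the 9 adaptors none was called higher in COPD lungs and 6 were called lower, the TRAF genes other than Traf2. Among all genes 8.23% were called higher and 66.4% lower, so the number lower is near the share over all genes. The 6 lay between -0.43 ± 0.16 (Traf7) and -0.98 ± 0.18 (Traf5), around the median of all genes. None of these calls was kept after median-of-ratios scaling, where Traf7 was called higher at 0.48, Traf2 at 1.00 and Tradd at 0.74. Between WDD and COPD lungs Traf5 was called higher on deposited values (0.63) and no adaptor lower (57.1% and 6.63% of all genes). After median-of-ratios scaling Traf5 had 0.059, and Traf2 (-0.68), Traf3 (-0.70), Traf6 (-0.79) and Traf7 (-0.33) were called lower. For Traf1, Traf3, Traf4, Traf7, Tradd and Ripk1 the sign of the value in COPD lungs depended on the scaling. Traf5 and Traf6 stayed negative (-0.15 each after median-of-ratios scaling, not called), and Traf2 stayed positive.

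Traf6 and Traf3 were the adaptors called lower in the decoction group than in normal lung under both scalings. TRAF6 is the ubiquitin ligase that CD40, RANK and Toll-like receptors use, and TRAF3 restrains the non-canonical NF-kappaB route. Traf6 stood at 3.91, 4.95, 5.20, 4.98 and 6.65 FPKM in controls, at 2.03, 2.18, 2.08, 1.82 and 3.80 FPKM in COPD lungs and at 2.16, 1.70, 2.09, 1.98 and 0.675 FPKM in WDD lungs. All libraries of both exposed groups were below the lowest control. Traf6 had -0.87 ± 0.20 in COPD against control lungs and -1.19 ± 0.20 in WDD against control lungs (adjusted p = 0.000732 and 0.000234, limma), or -0.15 (not called) and -0.94 (called) after median-of-ratios scaling. Traf3 had means of 4.23 ± 0.684, 2.35 ± 0.411 and 1.84 ± 0.169 FPKM (SD, n = 5) in control, COPD and WDD lungs, and -0.87 ± 0.13 in WDD against control lungs (adjusted p = 0.000141, limma).

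Tradd, the adaptor of TNFR1, stood at 17.1 to 27.5 FPKM in controls, 7.56 to 29.4 FPKM in COPD and 22.9 to 28.7 FPKM in WDD lungs and passed in no comparison on deposited values. Ripk1, the kinase that links TNFR1 to NF-kappaB and to cell death, stood at 20.4, 21.2, 22.9, 22.6 and 24.3 FPKM in controls, at 7.52, 10.05, 9.06, 8.71 and 48.3 FPKM in COPD lungs, and at 17.9, 17.6, 17.5, 13.0 and 12.4 FPKM in WDD lungs. COPD 5 lay above every other library and the other 4 COPD libraries below all of them. The value of -0.78 ± 0.35 between COPD and control lungs was not called (adjusted p = 0.0535, limma), but was -1.25 without COPD 5 (adjusted p = 3.54e-07, limma). Between WDD and COPD lungs it was 0.29 ± 0.35, or 0.75 and called without COPD 5. Every WDD library of Ripk1 lay below every control. The WDD against control value of -0.49 ± 0.35 was not called (adjusted p = 0.291, limma), nor was -0.23 after median-of-ratios scaling. The standard error is shared by the 3 groups and so includes the spread from COPD 5.

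Of the 3 genes named for binding TRAF3, 2 were called lower in COPD lungs (66.4% of all genes) and higher in WDD against COPD lungs (57.1% of all genes). Traf3ip1, which encodes a component of intraflagellar transport in cilia, stood at 9.25, 12.3, 10.4, 14.6 and 12.3 FPKM in controls, at 1.61, 2.36, 1.88, 3.01 and 1.65 FPKM in COPD lungs, and at 4.05, 4.64, 5.37, 6.06 and 6.52 FPKM in WDD lungs. The groups did not overlap, with WDD lungs between the others, and its log2 fold changes of -2.05 ± 0.16, 1.03 ± 0.16 and -1.01 ± 0.16 in the 3 comparisons were called under both scalings. Traf3ip2, the adaptor Act1 of the interleukin-17 receptor, fell by 0.69 ± 0.13 in COPD lungs and rose by 0.43 ± 0.13 in WDD against COPD lungs on deposited values, but had 0.20 and -0.20 (not called) after median-of-ratios scaling. Traf3ip3, expressed in lymphocytes, stood at 10.5 to 11.8 FPKM in controls, at 9.61, 12.9, 8.29, 12.1 and 0.846 FPKM in COPD lungs and at 10.1 to 11.7 FPKM in WDD lungs. COPD 5 was the lowest library, and the gene passed in no comparison.

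Differences between 2 members within a library are little moved by its scaling only where both lie well above 1 FPKM. With 1 added to each value, a low member shifts less than a high one. After median-of-ratios scaling the COPD against control value went from 1.53 to 2.17 for Ltb and from 0.046 to 0.96 for Ltbr. On the log2(FPKM + 1) scale 7 pairs were compared, and 20 of 21 tests kept their sign and call under that scaling. Of the 21 tests (exact permutation tests, two-sided, adjusted by Benjamini-Hochberg), 12 passed, and the smallest p that 5 against 5 allows is 0.00794. Ltb minus Ltbr was -5.00 ± 0.36 in control, -3.52 ± 0.53 in COPD and -4.81 ± 0.22 in WDD lungs (mean ± SD, n = 5). COPD libraries lay above all others, so Ltb transcripts rose relative to those of Ltbr (difference 1.48, exact permutation adjusted p = 0.0152). The WDD value was lower again (difference -1.29, exact permutation adjusted p = 0.0152).

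Tnfsf12 minus Tnfrsf12a, TWEAK against its receptor, was 2.14 ± 0.55 in control, 0.44 ± 0.99 in COPD and 2.49 ± 0.44 in WDD lungs. The receptor thus came close to its ligand in COPD lungs, with a difference of -1.71 against control (exact permutation adjusted p = 0.0278) and of 2.05 for WDD against COPD (exact permutation adjusted p = 0.0152). COPD 3 lay within the control range. Tnfsf13b minus Tnfrsf13c, BAFF against its receptor, was 2.27 ± 0.26, 1.16 ± 0.35 and 1.99 ± 0.21, a difference of -1.11 in COPD lungs with groups apart (exact permutation adjusted p = 0.0152). The difference of 0.83 between WDD and COPD lungs passed as deposited but not after median-of-ratios scaling.

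Cd40lg minus Cd40 was -1.71 ± 0.34 in control, -3.76 ± 1.76 in COPD and -1.72 ± 0.47 in WDD lungs. COPD 5, at -6.83, set the size of this difference, which was -2.05 against control with it and -1.28 without it, and the groups did not overlap in either case (exact permutation adjusted p = 0.0152 and 0.0303). Between WDD and COPD lungs it was 2.04 with COPD 5 and 1.27 without it. Tnfrsf1b minus Tnfrsf1a went from -1.12 ± 0.41 in control to -1.77 ± 0.16 in COPD lungs (difference -0.65, exact permutation adjusted p = 0.0152), so TNFR1 gained on TNFR2. In WDD lungs it was -1.60 ± 0.45, which did not differ beyond the spread from either group (exact permutation adjusted p = 0.526 against COPD and 0.200 against control).

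Among adaptors, Traf2 minus Traf6 was 1.48 ± 0.37 in control, 2.47 ± 0.36 in COPD and 2.74 ± 0.48 in WDD lungs, above all controls in both exposed groups (differences 0.99 and 1.26, exact permutation adjusted p = 0.0152 each). Traf1 minus Traf3 was 0.99 ± 0.16, 1.14 ± 0.52 and 1.71 ± 0.29, and differed between WDD and control lungs only (0.72, exact permutation adjusted p = 0.0152; COPD against control 0.15, exact permutation adjusted p = 0.575; WDD against COPD 0.57, exact permutation adjusted p = 0.0897).

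**Figure D4:**
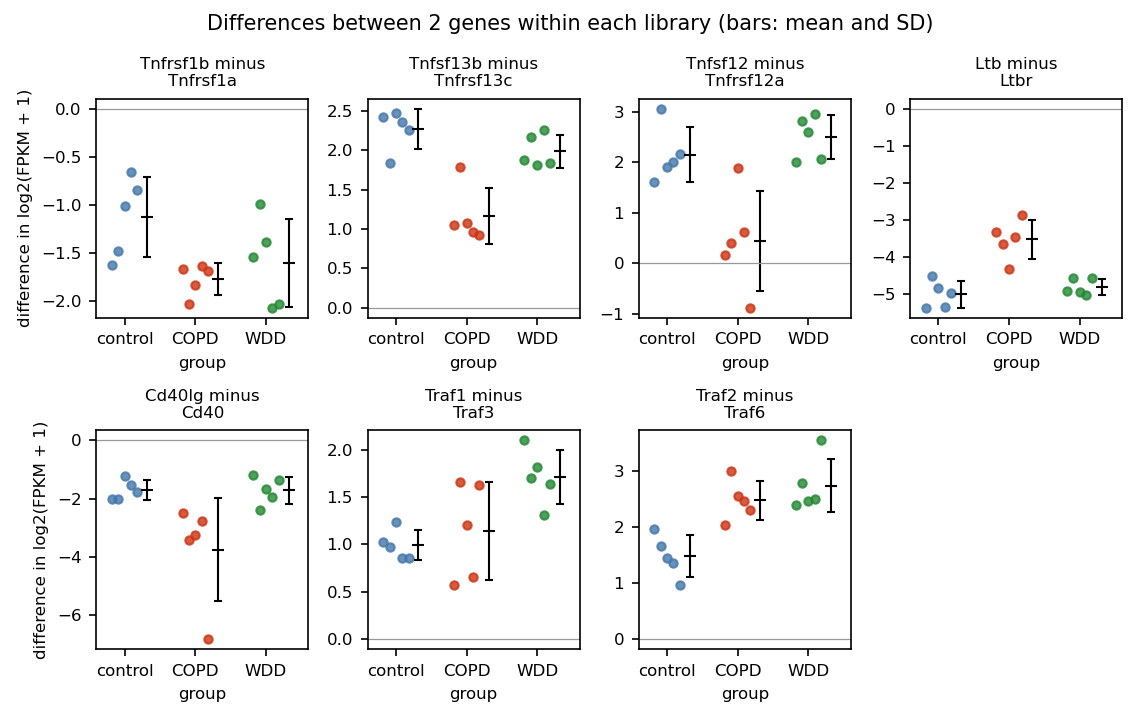
Difference in log2(FPKM + 1) between 2 genes within each library (vertical axes, which differ between panels), by group, with mean and SD as black bars. Ltb minus Ltbr is highest in COPD libraries, and Cd40lg minus Cd40 reaches -6.83 in COPD 5.

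Of 47 other genes of the pathway tested, 11 were called higher and 15 lower in COPD lungs (8.23% and 66.4% of all genes), and 6 higher and 15 lower in WDD against COPD lungs (57.1% and 6.63% of all genes). In WDD against control lungs 0 were higher and 15 lower (6.35% and 31% of all genes), the latter near the share over all genes. Their median log2 fold changes were -0.18, -0.10 and -0.26, beside -0.81, 0.54 and -0.23 for all genes. After median-of-ratios scaling 27 were higher and 6 lower in COPD lungs (3947 and 4296 of all 13172 genes). In WDD against COPD lungs 1 was then higher and 28 lower (3075 and 2819 of all genes). In WDD against control lungs 1 was higher and 9 lower (2070 and 2262 of all genes). Of 9 NF-kappaB subunits and inhibitors 5 were higher in COPD lungs and 6 lower in WDD against COPD lungs on deposited values. Of 14 kinases none was higher and 9 were lower in COPD lungs, near the 66.4% of all genes called lower.

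Bcl3, an inhibitor homologue that acts with NF-kappaB in the nucleus, stood at 10.2 to 13.8 FPKM in controls, at 61.5 to 219 FPKM in COPD lungs and at 10.2 to 12.4 FPKM in WDD lungs. Ripk3, the kinase that carries necroptosis, stood at 8.11 to 9.20, 32.4 to 53.6 and 6.34 to 8.37 FPKM in the same order. Bid, which links death receptors to mitochondria, stood at 9.83 to 12.9, 38.3 to 50.01 and 11.1 to 13.3 FPKM. In all 3 genes every COPD library was above every other library, with log2 fold changes in COPD lungs of 2.93 ± 0.25, 2.11 ± 0.15 and 1.79 ± 0.12 and in WDD against COPD lungs of -2.99 ± 0.25, -2.34 ± 0.15 and -1.73 ± 0.12, all called.

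Rhbdf2 and Adam10, which act on the shedding of ligands and receptors from the cell surface, went opposite ways. Rhbdf2, a partner of the TNF-releasing protease, stood at 16.04 to 21.0 FPKM in controls, 44.1 to 66.8 FPKM in COPD and 7.56 to 12.01 FPKM in WDD lungs, so that WDD lungs were below normal lung, as for Tnfrsf1a. Adam10 stood at 21.5 to 35.7, 4.09 to 6.49 and 9.54 to 14.9 FPKM and was lower than control in COPD (-2.20 ± 0.17) and in WDD lungs (-1.27 ± 0.17; adjusted p = 6.74e-05, limma). Among genes lower in WDD than in control lungs, Ikbkg, the regulatory subunit of the IKK complex, had -1.34 ± 0.19, Map2k7, a kinase upstream of JNK, had -1.19 ± 0.18, and Tab3, a partner of the kinase TAK1, had -1.12 ± 0.20.

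**Figure D5:**
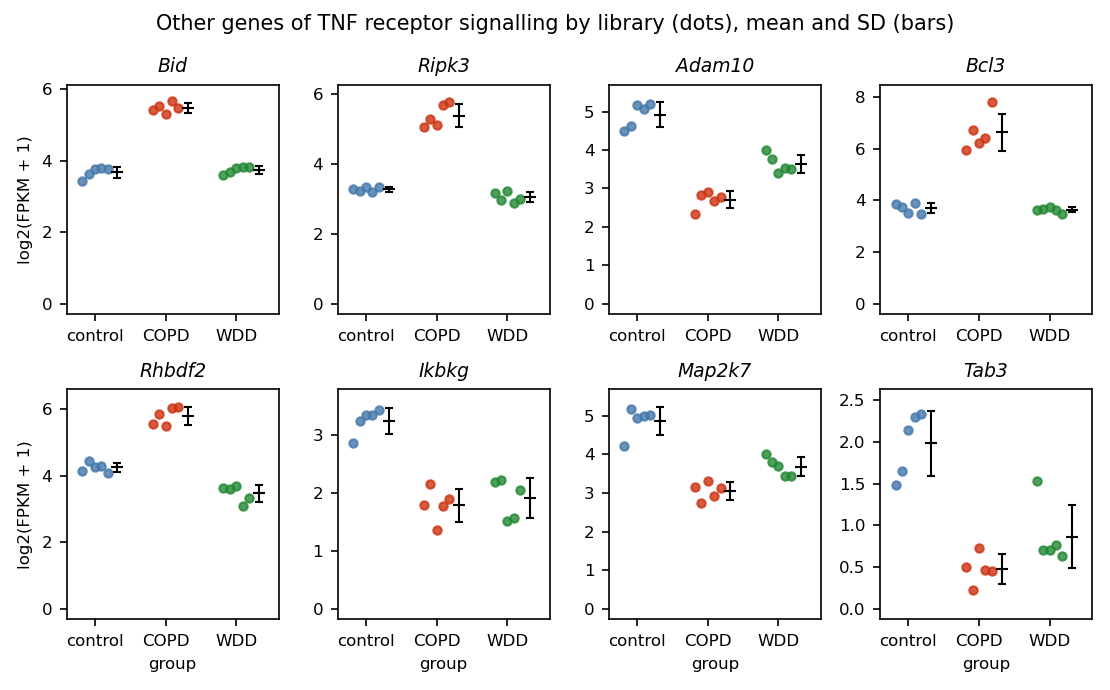
Levels of 8 other pathway genes by library on the log2(FPKM + 1) scale (vertical axes, which differ between panels), with mean and SD as black bars. Bid, Ripk3, Bcl3 and Rhbdf2 have all COPD libraries above all others, and Adam10, Ikbkg and Map2k7 all exposed libraries below the controls.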

How the data were processed

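RNA from rat lung was measured in 15 libraries. Per the labels' protocols, it was extracted with TRIzol and made into libraries with an NEBNext Ultra RNA kit. Per the submitters' processing notes, cutadapt, HISAT2, StringTie and build Rnor_6.0 were used. What tool versions, annotation release and strand setting they had is not given in the sources used here. The deposited values are FPKM, computed by the authors. With FPKM alone, counting error cannot be given.

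Values were analysed as log2(FPKM + 1) for the 13172 genes with at least 1 FPKM in at least 5 libraries. The main model held all libraries and the 3 groups (limma 3.58.1, R 4.3.3, moderated with a mean trend). Its code was first run on simulated data with few changed genes and the same capped spread in every group. That setting is unlike these data, so it does not test the fit for them. Within-library differences were tested by exact permutation in Python 3.11.15 with scipy 1.17.1. The members and lists were chosen with earlier results of these data known. Genes given by library are the 6 called members with the largest rise and the 6 with the largest fall in each comparison, those called in opposite directions in COPD against control and WDD against COPD with groups apart in both, and Tnf, Tnfrsf1a and Tnfrsf1b. Up to 4 other pathway genes of lowest p per comparison are named. Cd40, Ripk1, Fas and Traf3ip3 were added after their values were seen. Of 48 other pathway genes listed, 47 were tested. Long and short housekeeping genes were listed by hand from general knowledge. Alternatives were a pseudocount of 0.1, no filter, median-of-ratios scaling, scaling to the FPKM sum without mitochondrial genes, a fit of just the 2 groups, a replicate block, and leaving out each library. Leaving out COPD 1 and COPD 5 together was chosen after seeing the data. Promoter sequences are from RefSeq, matched by symbol; another build than the authors' was used for them.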

Additional observations from a re-analysis of the deposited data

Results flagged for a closer look

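Levels of the 23 members given by library were searched for a library far from the other 4 of its group, on the log2(FPKM + 1) scale, in 69 groups of 5. Chance alone flags about 1 group in 20, and 9 groups were flagged. The 23 members include Cd40, Ripk1, Fas and Traf3ip3, which were added after their values were seen. The number flagged therefore cannot be set against that rate. COPD 5 stood apart in 4 of the flagged groups: Cd40 at 145 FPKM (others 5.50 to 13.9), Ripk1 at 48.3 FPKM (others 7.52 to 10.05), Traf3ip3 at 0.846 FPKM (others 8.29 to 12.9) and Traf6 at 3.80 FPKM (others 1.82 to 2.18). Tnfrsf13b in COPD 1 was at 0.215 FPKM where the other COPD libraries were at 0, so that any level above 0 would be flagged. Cd40lg in control 3 was at 2.99 FPKM (others 1.83 to 2.03), and Tnfrsf9 in control 1 at 1.24 FPKM (others 0.288 to 0.507). Tnfsf10 in WDD 3 was at 18.4 FPKM (others 26.5 to 29.6), and Traf6 in WDD 5 at 0.675 FPKM (others 1.70 to 2.16).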

How the results depend on the processing

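After median-of-ratios scaling members called were 16 higher and 10 lower for COPD against control (all genes 3947 and 4296). There were 8 higher for WDD against COPD (all genes 3075) and 2 higher for WDD against control (all genes 2070). With the FPKM sum without mitochondrial genes, 10 were higher for WDD against COPD (all genes 4544). Under the same scaling 14 were lower for WDD against control (all genes 5349). With only the 2 groups compared, 14 were lower for WDD against control (all genes 5569). At a pseudocount of 0.1 the 1 higher there became 0 (all genes 787), as in leave-one-out fits (0 to 1). Other pathway genes after median-of-ratios scaling numbered 27 higher and 6 lower for COPD against control (all genes 3947 and 4296). They numbered 1 and 28 for WDD against COPD (all genes 3075 and 2819) and 1 and 9 for WDD against control (2070 and 2262). With the FPKM sum without mitochondrial genes, 2 were higher and 23 lower for WDD against COPD (all genes 4544 and 1511). With only the 2 groups compared, 24 were lower for WDD against control (all genes 5569). Without COPD 1 and COPD 5, members numbered 8 higher and 19 lower for COPD against control (all genes 1619 and 8424). They numbered 14 and 10 for WDD against COPD (all genes 6877 and 1332).

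Among members given by library, log2 fold changes of another sign after median-of-ratios scaling were 0.093 and -0.32 for Ripk1 (COPD against control, WDD against COPD), 0.68 for Tnfrsf21 and 0.21 for Traf3ip3 (COPD against control), -0.20 for Tnfrsf14 (WDD against COPD), and 0.071 for Tnfrsf11a, 0.20 for Tnfrsf12a and 0.22 for Traf3ip3 (WDD against control). With the FPKM sum without mitochondrial genes they were 0.030 for Tnfrsf21 (COPD against control), -0.047 for Ripk1 (WDD against COPD), and -0.020 for Tnfrsf25 and -0.079 for Tnfsf13b (WDD against control). Without COPD 1 and COPD 5, Tnfrsf21 had 0.13 (COPD against control) and Traf3ip3 -0.012 (WDD against COPD). Leave-one-out values that changed sign ranged from -0.93 to 0.19 for Cd40 (WDD against COPD), from -0.19 to 0.11 for Tnfrsf12a and from -0.043 to 0.22 for Tnfsf13b (WDD against control). None of these had been called on deposited values. Among the other members, Traf1, Traf3, Traf4, Traf7, Tnfsf12, Faslg and Traf3ip2 were called lower in COPD lungs on deposited values and had values above 0 after median-of-ratios scaling (0.070 for Traf3 to 0.48 for Traf7, the latter called), and Traf3ip2 went from a called 0.43 to -0.20 for WDD against COPD. Each further sign change was in a comparison where that member was called under neither scaling, except Tnfrsf4 (0.58) and Tradd (0.74) for COPD against control and Traf7 (-0.33) for WDD against COPD, which were called after it. The cause was not tested.

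Among within-library differences, Tnfsf13b minus Tnfrsf13c for WDD against COPD was 0.51 at a pseudocount of 0.1 and 0.62 after median-of-ratios scaling, neither past the threshold (exact permutation adjusted p = 0.178 and 0.0556). Cd40lg minus Cd40 for WDD against control was 0.050 at a pseudocount of 0.1 and -0.13 to 0.16 with a library left out. Tnfsf12 minus Tnfrsf12a for COPD against control ranged from -2.07 to -1.38 and lost its call in 8 of 10 leave-one-out tests. Fewer samples raise the smallest p in such tests, but every other passing difference kept its call throughout them.

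Libraries were not treated as paired by replicate number, since the labels do not say what a number shares. Of 15 same-numbered pairs 1 had a correlation of deviations above 0.1 (-0.20 to 0.14), which does not settle what a number shares. With the replicate block, members called were 6 higher and 21 lower, 16 and 10, and 1 and 8 in the 3 comparisons, and no call of a member given by library changed. At low FPKM, as for Tnf, depth limits what can be seen.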
